A study of Mus musculus with 12 samples.

Results

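The genes described here are the ligands, secreted modulators, receptors, SMAD proteins and Id targets of the bone morphogenetic protein (BMP) and transforming growth factor beta (TGF-beta) pathways. They were chosen by name, as the gene symbols that begin with Bmp, Bmpr, Gdf, Tgfb, Tgfbr, Inhb, Acvr or Smad followed by a number or letter, together with Id1 to Id4, Inha, Nog, Grem1, Chrd, Fst, Mstn and 1 further secreted modulator. The rule used no measured value, and 59 of the 38720 genes listed met it: 29 ligands, 6 secreted modulators, 12 receptors, 8 SMADs and 4 Id genes. RNA was sequenced from the retinas of P0 mice of the C57/BL6 strain, in mKO mice and WT mice. The mKO mice carry Math5-Cre, a Cre recombinase placed in the locus of a transcription factor (Math5, also named Atoh7) of retinal progenitors that form retinal ganglion cells (RGCs), and Ezh2 flox/flox alleles, in which loxP sites flank the exons for the catalytic SET domain of this histone H3 lysine 27 methyltransferase. By the study's account Cre acts in only part of the RGCs, so that the mKO RGC libraries mix deleted and undeleted cells. The labels and the study's methods for RNA sequencing call the controls wild type. The study's results, however, describe the sequenced controls as littermates, and its usual littermate controls were Ezh2 flox/flox mice. The genotype of the WT libraries is therefore not certain. Cells of dissociated retinas that bound magnetic beads against Thy-1, a surface protein of RGCs, are called RGCs here, and the cells left over are called non-RGCs; each genotype and fraction has 3 libraries from independent RNA extractions, 12 in all. Whether animals were pooled is not given in the sources used here. The deposited tables hold only the mean over the 3 libraries of a group, from which the reads of each library were recovered; within a group they are named A, B and C in order of falling depth, and they cannot be tied to the numbered samples.

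In this family a dimeric ligand brings together type I and type II receptor kinases at the cell surface. BMPs and many growth differentiation factors (GDFs) act through type I receptors such as Bmpr1a and Bmpr1b on Smad1, Smad5 and Smad9, whereas TGF-betas, activins and myostatin (Mstn) act through Tgfbr1, Acvr1b or Acvr1c on Smad2 and Smad3; both branches share Smad4 and are held back by Smad6 and Smad7. Secreted antagonists bind the ligands before they reach a receptor, Fst (follistatin) binding activins and myostatin, and Nog (noggin), Chrd (chordin) and Grem1 (gremlin) binding BMPs. Id1 to Id4 encode inhibitors of basic helix-loop-helix transcription factors and are widely used as readouts of BMP signalling. In the developing eye, BMP4 and BMP7 are known for lens induction, BMP4 also for the dorsal identity of the retina, and Gdf11 for limiting the number of RGCs that form.

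The promoters of 4 members are shown because their genes carry the results below: Grem1, which was higher in mKO RGCs, Mstn and Inhbb, which differed in non-RGCs in opposite directions, and Id3, a BMP target that followed 1 library. Each line gives the 250 bases before the RefSeq start on GRCm38.p6, 5′ to 3′ in the direction of the gene, and capitals mark matches to the motifs named in the next paragraph.
Grem1 (chr2:113758649-113758898, minus strand): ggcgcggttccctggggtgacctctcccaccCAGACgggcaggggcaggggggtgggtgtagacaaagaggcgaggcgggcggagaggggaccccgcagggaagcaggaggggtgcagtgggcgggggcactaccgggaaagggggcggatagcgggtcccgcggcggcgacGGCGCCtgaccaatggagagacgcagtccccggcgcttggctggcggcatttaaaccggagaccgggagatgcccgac
Mstn (chr1:53061390-53061639, plus strand): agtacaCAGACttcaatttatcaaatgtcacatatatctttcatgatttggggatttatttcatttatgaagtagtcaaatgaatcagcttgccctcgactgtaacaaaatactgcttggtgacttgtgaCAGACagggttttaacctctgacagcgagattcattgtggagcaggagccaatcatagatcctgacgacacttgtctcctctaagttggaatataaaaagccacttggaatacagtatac
Inhbb (chr1:119422249-119422498, minus strand): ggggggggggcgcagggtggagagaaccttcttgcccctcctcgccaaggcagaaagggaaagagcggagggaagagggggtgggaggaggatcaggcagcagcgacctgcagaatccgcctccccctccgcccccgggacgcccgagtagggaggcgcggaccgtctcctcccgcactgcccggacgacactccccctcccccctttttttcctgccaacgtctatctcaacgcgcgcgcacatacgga
Id3 (chr4:136143572-136143821, plus strand): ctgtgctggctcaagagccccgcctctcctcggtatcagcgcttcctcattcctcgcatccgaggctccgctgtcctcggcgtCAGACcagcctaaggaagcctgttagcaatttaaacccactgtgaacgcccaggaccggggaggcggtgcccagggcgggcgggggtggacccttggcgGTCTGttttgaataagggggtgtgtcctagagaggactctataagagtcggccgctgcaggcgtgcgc

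These 4 windows differ in base composition, with G or C at 72% of the bases before Grem1, 68% before Inhbb, 62.8% before Id3 and 38.4% before Mstn. Both strands were searched for GGCGCC, an element bound by SMADs in BMP-responsive genes, GTCTAGAC, the palindromic SMAD-binding element, CAGAC, a shorter SMAD box, and the E-boxes CACGTG and CAGCTG, which basic helix-loop-helix factors bind; none of these motifs contains another. Among these windows GGCGCC occurred only before Grem1, with its first base 78 bases before the start, and CAGAC occurred before Grem1 (219 bases), Mstn (244 and 120 bases) and Id3 (167 and 68 bases). The Inhbb window held none of the 5 motifs. RefSeq promoters of 300 bases, which add 50 bases after the start, matched 41 of the 59 members, with 49 promoters among them. Some members had more than 1 promoter, and 37 of the 49 matched the beginning of a transcript of their gene. GGCGCC was in 26.5% of the 49 and in 11.9% of all 32851 promoters, CAGAC in 49.0% and 49.6%, CACGTG in 10.2% and 7.15%, CAGCTG in 16.3% and 16.3%, and GTCTAGAC in 1 promoter, that of Smad6, against 0.213% of all. These shares were neither tested nor matched for GC content. A match is a string of letters and not a measured binding site.

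Between 7139633 and 13014004 reads fell on genes in each library, the lowest being that of mKO non-RGC library C. Counts of Ezh2, the targeted gene, cover the whole gene and do not separate the deleted exons, and no count by exon was used here. WT RGC libraries held 1189.9, 1206 and 1678 normalized reads and mKO RGC libraries 1354, 1476 and 1443, a log2 fold change of 0.09 ± 0.13 (SE; adjusted p = 0.637), and the change in non-RGCs was 0.13 ± 0.15 (SE; adjusted p = 0.584). The study reports a change of Ezh2 in mKO RGCs from its RNA sequencing, and less Ezh2 there by qPCR and Western blot. The counts per gene recovered here did not show a fall. Log2 fold changes between genotypes fell with the GC content of transcripts in both fractions, with a Spearman correlation of -0.73 over 12798 genes in RGCs and -0.51 over 12232 in non-RGCs (genes with a mean of at least 50), and of -0.69 and -0.47 over the members tested. Genes of 1 library are not independent replicates, so no p is given. Results are therefore set beside their values after each library's trends with GC content and read density (reads per exon base) had been taken out, called trend-adjusted below. Summed RGC markers lay at 2262 to 2402 CPM (reads scaled to the same total in each library) in WT RGC libraries and 1795 to 1855 in mKO RGC libraries, with none of the 10 markers at 0 reads. WT RGC library C stood apart from its group, with summed progenitor markers at 1713 CPM against 1004 and 1063, and members whose call changed without it are named with their values. Blood markers stood at 3.87 to 4.87 CPM in WT and 10.8 to 15.7 in mKO RGC libraries. Photoreceptor markers stood at 466.8 to 669.8 and 394 to 439, and ciliary and kidney-like markers at 8.44 to 14.1 and 0.692 to 1.45. In each case the genotypes did not overlap, and the part of these markers in the results was not tested. Summed mesenchyme markers (5 collagen and matrix genes) ranged from 13.96 to 889.6 in WT RGCs and from 45.3 to 490.4 in mKO RGCs. Fewer cells of a type and less RNA per cell cannot be told apart in these bulk samples, and all libraries were sequenced in 1 lane, with no date of preparation given.

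In WT cells the members ranged from no or nearly no reads to a level among well expressed genes. Levels are compared between genes and fractions as RPKM, the CPM divided by the length of the exons in kilobases, with no test, because the authors normalized the tables of the fractions separately. The mean was at least 10 RPKM for 19 members in WT RGCs and for 21 in WT non-RGCs, and under 1 RPKM in both for 18. Members with no more than 3 reads in any of the 12 libraries, and so at the floor of what a count of 0 allows, were the ligands Bmp5, Bmp10, Gdf1, Gdf3, Inhbc and Inhbe (6 members). Gdf1 shares all its exons with Cers1, a ceramide synthase gene, so that its reads may have been left uncounted. Bmp8a and Bmp8b are near-identical copies whose reads may be split between them. Of the members above the floor, the ligand genes Bmp8a, Bmp15, Gdf2, Gdf5 and Gdf7 were too low to be tested in either fraction, with at most 14 reads in any library (Bmp15), and Inhba was too low in RGCs.

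**Figure D1:**
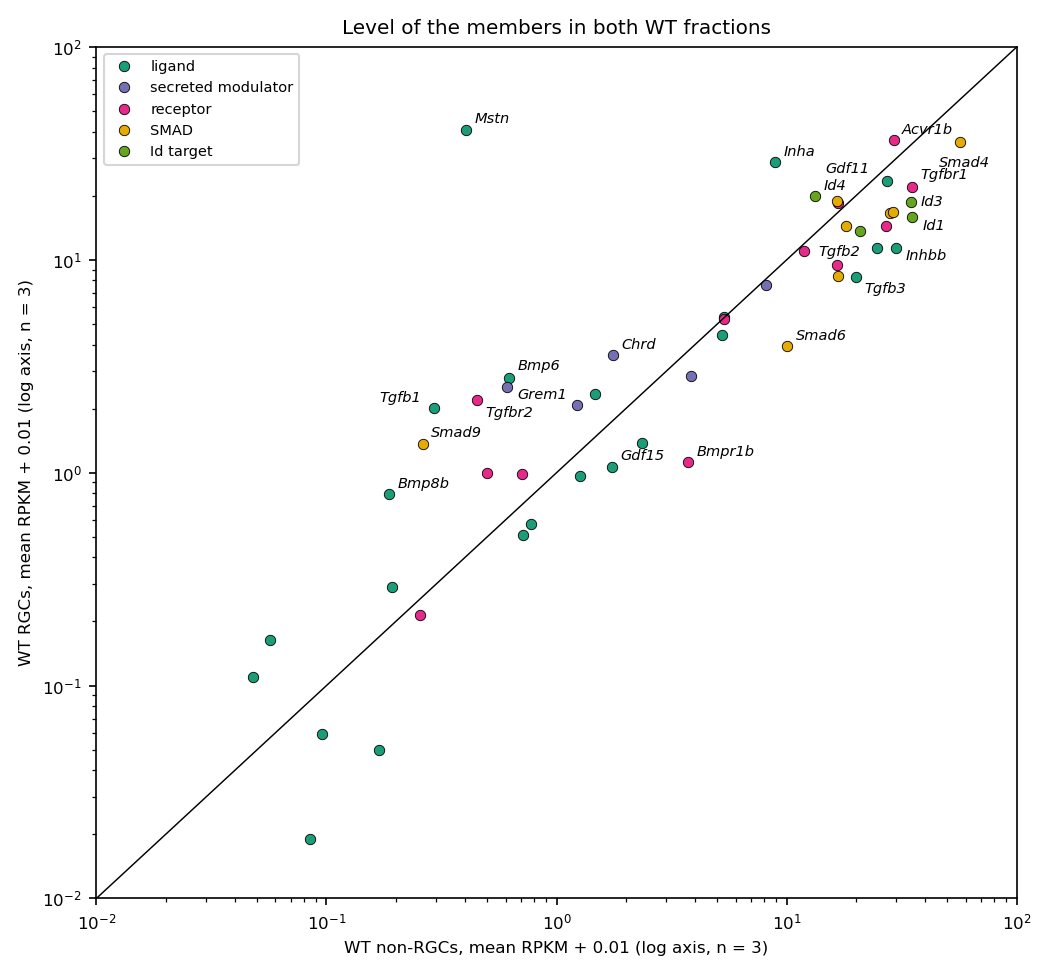
Mean RPKM of the members in WT RGCs (vertical) against WT non-RGCs (horizontal), both on log axes with 0.01 added and n = 3 libraries each; points are coloured by role, the line marks equal levels, and the 6 members at the floor and 1 member not reported here are left out. Mstn (40.9 ± 2.25 against 0.395 ± 0.0386) lies far above the line, and most receptors and SMADs lie near it.

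Among ligands, Mstn, best known as an inhibitor of muscle growth, had the highest level in WT RGCs, 40.9 ± 2.25 RPKM (SD, n = 3) against 0.395 ± 0.0386 in WT non-RGCs. Inha, the alpha subunit of inhibin, stood at 28.8 ± 3.01 RPKM in WT RGCs and 8.93 ± 1.35 in WT non-RGCs. These 2 ligand genes and Gdf11 (23.5 ± 0.654 RPKM in WT RGCs, 27.4 ± 5.49 in WT non-RGCs) led the ligands of the RGC fraction. In WT non-RGCs the leading ligand was Inhbb, the beta B subunit of activin and inhibin, at 29.7 ± 5.72 RPKM against 11.4 ± 5.23 in WT RGCs. The next were Gdf11, Tgfb2 at 24.7 ± 3.01 and Tgfb3 at 20.1 ± 1.83, and Inhbb, Gdf11 and Tgfb2 did not differ beyond their SD. Tgfb2 and Tgfb3 were lower in WT RGCs, at 11.4 ± 3.71 and 8.34 ± 1.97 RPKM, and Tgfb1 was the only TGF-beta ligand with a higher level in the RGC fraction, at 1.99 ± 0.53 against 0.282 ± 0.185. The BMP genes named here were low in both fractions. Bmp7 had 4.45 ± 0.504 RPKM in WT RGCs and 5.23 ± 0.799 in WT non-RGCs, Bmp6 had 2.77 ± 0.721 and 0.61 ± 0.131, and Bmp4 had 0.563 ± 0.503 and 0.764 ± 0.464.

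Among secreted modulators, Grem1 and Chrd had higher levels in the RGC fraction. Grem1 stood at 2.53 ± 0.569 RPKM in WT RGCs and 0.596 ± 0.184 in WT non-RGCs, and Chrd at 3.55 ± 0.461 and 1.75 ± 0.714. Nog, at 2.83 ± 0.552 and 3.83 ± 0.319 RPKM, and Bmp1, a metalloprotease that cleaves chordin and procollagens and is not a ligand of the family, at 7.61 ± 0.499 and 8.1 ± 0.431, had similar levels in both fractions.

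Of the receptors given here with levels, Acvr1b had the highest in WT RGCs. In WT non-RGCs Tgfbr1 had the highest mean, but Tgfbr1, Acvr1b and Bmpr1a did not differ there beyond their SD. Acvr1b, a type I receptor for activins, stood at 36.6 ± 3.14 RPKM in WT RGCs and 29.2 ± 0.751 in WT non-RGCs, and Tgfbr1, the type I receptor for TGF-beta, at 21.9 ± 3.88 and 35.0 ± 7.18. Bmpr1a had 14.5 ± 2.4 and 27.0 ± 4.37 RPKM, Bmpr1b 1.11 ± 0.49 and 3.71 ± 1.77, and the type II receptor Bmpr2 5.27 ± 0.94 and 5.32 ± 0.63. Tgfbr2, the type II receptor that TGF-beta needs, was low and uneven, at 1.26, 4.14 and 1.16 RPKM in the WT RGC libraries and 0.201, 0.962 and 0.165 in the WT non-RGC libraries, and library B was the highest of both groups.

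Smad4 had the highest level of the SMADs in both fractions, 35.9 ± 2.78 RPKM in WT RGCs and 56.5 ± 1.83 in WT non-RGCs. Of the BMP-branch SMADs, Smad1 and Smad5 stood at 18.9 ± 1.26 and 16.6 ± 2.39 RPKM in WT RGCs, and Smad9 at 1.36 ± 0.508 there and 0.252 ± 0.0647 in WT non-RGCs. Smad6, an inhibitor of the BMP branch, had 3.91 ± 2.23 and 10.04 ± 2.58 RPKM. The Id genes were all expressed in both fractions. Id4 had 19.9 ± 0.356 RPKM in WT RGCs and 13.3 ± 0.301 in WT non-RGCs, while Id1 had 15.8 ± 10.8 and 35.0 ± 14.7, Id2 13.7 ± 3.01 and 20.8 ± 4.77, and Id3 18.8 ± 9.84 and 34.6 ± 4.54. In WT RGCs Id1 and Id3 did not differ from the other Id genes beyond their own SD, which WT RGC library C set.

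The first comparison asked which members differed between mKO and WT RGCs. Fst, Grem1 and the type I receptor Acvr1c were higher in mKO RGCs, and the ligand genes Gdf15, Inhbb and Tgfb1 were lower, with fold changes of up to 3.73 (Gdf15) for those that fell and 2.22 (Grem1) for those that rose. These members passed limma's test on log2 of the normalized count plus 1, with an adjusted p under 0.05 over all genes tested, and changed at least 1.5-fold. Of the 59 members 47 had a mean of at least 10 in either genotype and were tested, and 3 of them (6.38%) were higher and 3 (6.38%) lower in mKO RGCs. Over all 16085 genes tested, 7.91% were higher and 5.51% lower, so the share of members called was near the background. With no limit on the fold change 13 members (27.7%) had an adjusted p under 0.05, against 37.5% of all genes. The median log2 fold change of the members tested was -0.11, and that of all genes tested was 0.00. In the trend-adjusted fit 0 members met both criteria, 11 (23.4%, against 23.3% of all genes) had an unadjusted p under 0.05 in limma, and 2 of 47 (4.26%) had an adjusted p under 0.05, against 4.81% of all genes. Without WT RGC library C, 10 members (21.3%) were called and 24 (51.1%) had an adjusted p under 0.05, against 14.9% and 50.8% of all genes tested then. The members called in addition were Bmp3, Bmp6, Gdf10 and Bmpr1b, and Acvr1, Acvr1b, Gdf11, Id2, Smad1, Smad5 and Tgfb2 had an adjusted p under 0.05 with a change of less than 1.5-fold.

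**Figure D2:**
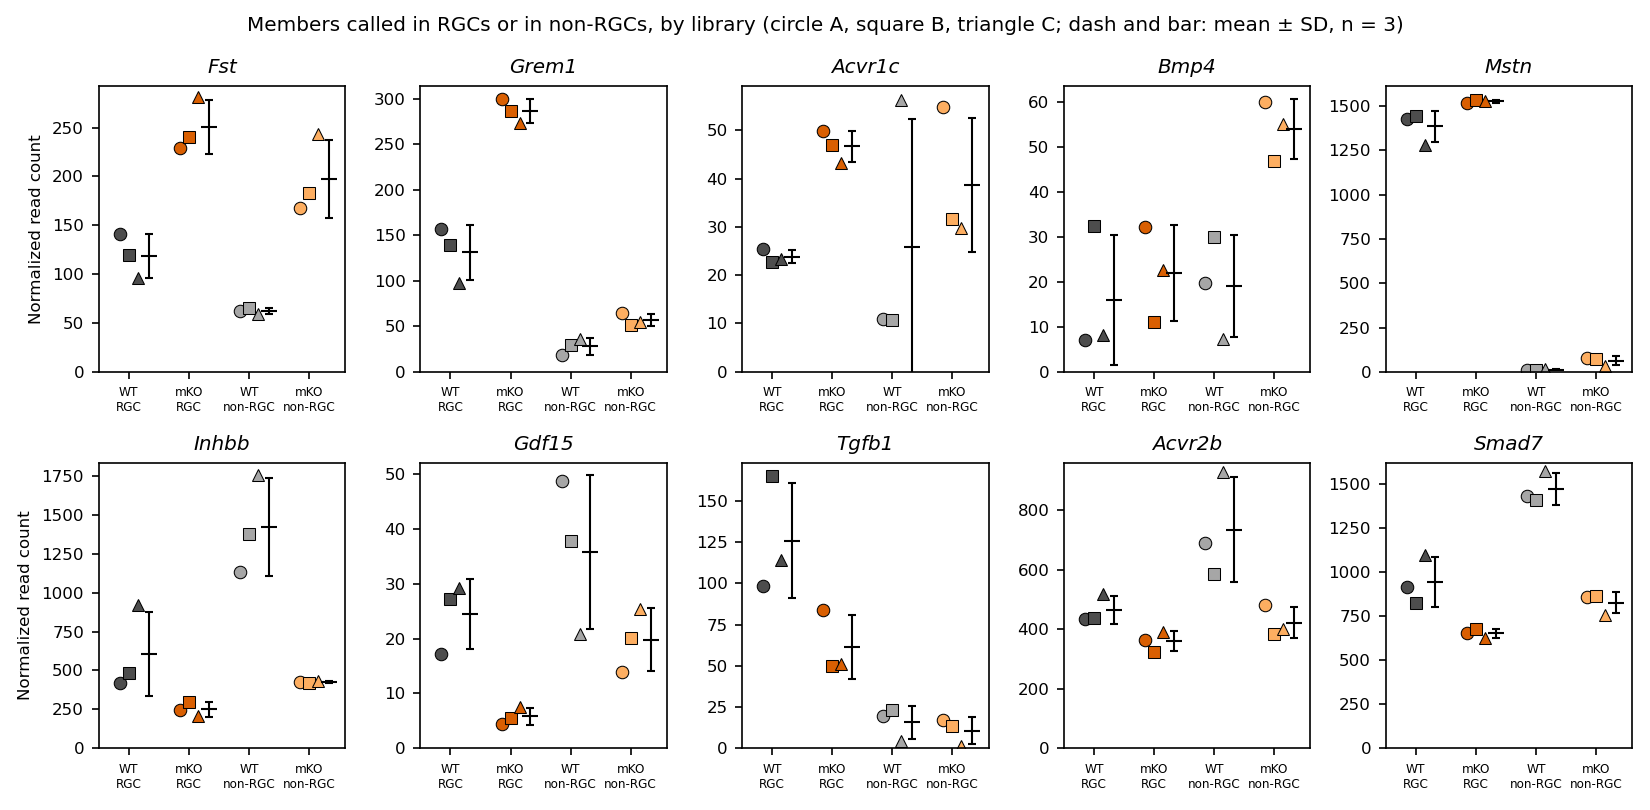
Normalized read counts of the 10 members called in RGCs or in non-RGCs, by library (circle A, square B, triangle C), with the mean and SD of the 3 libraries of a group as a dash and bar; the vertical axes start at 0 and levels are comparable within a fraction. For Fst, Grem1, Inhbb, Acvr2b and Smad7 the mKO libraries lie apart from the WT libraries in both fractions. So do those of Mstn, which is near 0 in non-RGCs on the scale of RGCs.

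Among secreted modulators, the activin antagonist Fst (chr13:114452290-114458951, minus strand) rose in mKO RGCs. The WT RGC libraries held 141, 119 and 95.7 normalized reads and the mKO RGC libraries 229, 241 and 281, so that the genotypes did not overlap, with a log2 fold change of 1.08 ± 0.17 (SE; adjusted p = 0.00332). Grem1 (chr2:113746164-113758646, minus strand), a BMP antagonist, held 157, 139 and 98.0 normalized reads in WT RGC libraries and 300.2, 287 and 274 in mKO RGC libraries, again without overlap, with a log2 fold change of 1.15 ± 0.18 (SE; adjusted p = 0.00339). The trend-adjusted log2 fold changes were 0.81 (adjusted p = 0.0529) for Fst and 0.77 (adjusted p = 0.0695) for Grem1, whose transcripts have 47.2% and 44.7% GC. Both kept an adjusted p under 0.05 without each library in turn (Fst 0.000772 to 0.0202, Grem1 0.000222 to 0.0212). For Chrd, Nog and Bmp1 the adjusted p lay between 0.0818 and 0.938, and the 95% interval of the log2 fold change of Chrd ran from -0.41 to 0.37.

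Among ligands, Gdf15, a stress-induced GDF, Inhbb and Tgfb1 were lower in mKO RGCs. Gdf15 (chr8:70629393-70632456, minus strand) held 17.2, 27.1 and 29.2 normalized reads in WT RGC libraries and 4.36, 5.53 and 7.53 in mKO RGC libraries, with a log2 fold change of -1.90 ± 0.34 (SE; adjusted p = 0.00516). The fall rests on few reads, 5, 6 and 8 in the mKO RGC libraries. Inhbb (chr1:119415465-119422248, minus strand) held 418, 483 and 917 normalized reads in WT RGC libraries and 248, 299.7 and 205 in mKO RGC libraries, with a log2 fold change of -1.20 ± 0.30 (SE; adjusted p = 0.0182). WT RGC library C was the highest of all, and without it the log2 fold change was -0.85 (adjusted p = 0.00268). The adjusted p of Inhbb rose above 0.05 without mKO RGC library A, -1.20 (adjusted p = 0.059), and without library C, -1.06 (adjusted p = 0.0707).

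Tgfb1 (chr7:25687002-25705077, plus strand) held 98.3, 165 and 114 normalized reads in WT RGC libraries and 83.8, 49.8 and 50.8 in mKO RGC libraries, with a log2 fold change of -1.03 ± 0.28 (SE; adjusted p = 0.026). Its log2 fold change was -0.82 (adjusted p = 0.0693) without WT RGC library B, -0.90 (adjusted p = 0.0932) without mKO RGC library B and -0.92 (adjusted p = 0.0921) without mKO RGC library C. Summed microglia markers, which follow a cell type known to make TGF-beta1, stood at 167, 232 and 242 CPM in WT RGC libraries and 214, 161 and 100.1 in mKO RGC libraries, none of the 5 markers was at 0 reads in any of them, and their part in the result was not tested. Inha, with 595, 498 and 503 normalized reads in WT and 383, 426 and 391 in mKO RGC libraries, fell by less than 1.5-fold, with a log2 fold change of -0.41 ± 0.10 (SE; adjusted p = 0.0154). Transcripts of these 4 ligand genes have 56.2% (Tgfb1) to 61.7% (Gdf15) GC. The trend-adjusted log2 fold change was -1.60 (adjusted p = 0.0533) for Gdf15, -0.74 (adjusted p = 0.182) for Inhbb and -0.81 (adjusted p = 0.108) for Tgfb1, and that of Inha turned to 0.09 (adjusted p = 0.568). Mstn held 1428, 1443 and 1281 normalized reads in WT RGC libraries and 1516, 1535 and 1528 in mKO RGC libraries, with a log2 fold change of 0.14 ± 0.06 (SE; adjusted p = 0.109). The other ligands tested had log2 fold changes between -0.84 (Bmp3) and 0.64 (Bmp4), and none of them had an adjusted p under 0.05. Without WT RGC library C the log2 fold change was -1.07 (adjusted p = 0.0429) for Bmp3, -0.77 (adjusted p = 0.00516) for Bmp6 and -0.79 (adjusted p = 0.0397) for Gdf10, which were then called, and 0.37 (adjusted p = 0.0209) for Tgfb2. Tgfb2, Tgfb3 and Gdf11, among the ligands of higher level in RGCs, had 95% intervals from -0.37 to 0.62, -0.66 to 0.26 and -0.33 to -0.04.

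Among receptors, Acvr1c (chr2:58267453-58357895, minus strand), a type I receptor for nodal and some activins, rose from 25.3, 22.8 and 23.3 normalized reads in WT RGC libraries to 49.7, 47.0 and 43.3 in mKO RGC libraries, with a log2 fold change of 0.94 ± 0.20 (SE; adjusted p = 0.00956). Its trend-adjusted log2 fold change was 0.50 (adjusted p = 0.213). The type II receptor for activins and BMPs Acvr2a, with 1385, 1507 and 1057 normalized reads in WT and 1901, 1762 and 1955 in mKO RGC libraries, rose by less than 1.5-fold, with a log2 fold change of 0.52 ± 0.13 (SE; adjusted p = 0.0181). Of its exons, 7.84% overlap Orc4, a gene on the other strand. Tgfbr1 held 1565, 1679 and 2132 normalized reads in WT and 2343, 2297 and 2208 in mKO RGC libraries, with a log2 fold change of 0.36 ± 0.11 (SE; adjusted p = 0.0413). Bmpr1a held 1009.5, 1085 and 1351 in WT and 1506, 1441 and 1411 in mKO RGC libraries, with a log2 fold change of 0.35 ± 0.11 (SE; adjusted p = 0.0404). For all 4 of these receptor genes every mKO RGC library lay above every WT one. Acvr2b moved the other way, from 435, 439 and 517 normalized reads in WT to 364, 325 and 391 in mKO RGC libraries, with a log2 fold change of -0.36 ± 0.11 (SE; adjusted p = 0.0359). Transcripts of the 4 receptor genes that rose have 40.4% to 43.5% GC and those of Acvr2b 59.0%. In the trend-adjusted fit none of these receptors had an adjusted p under 0.05, and Acvr2b turned to 0.04 (adjusted p = 0.863). The adjusted p of Acvr2b, Bmpr1a and Tgfbr1 rose above 0.05 without each of 5 of the 6 libraries in turn. The exception was WT RGC library C, without which the log2 fold changes were -0.28 (adjusted p = 0.0313) for Acvr2b, 0.47 (adjusted p = 0.000236) for Bmpr1a and 0.49 (adjusted p = 0.00016) for Tgfbr1. Without mKO RGC library A or C those of Acvr2a were 0.51 (adjusted p = 0.0634) and 0.49 (adjusted p = 0.0698), and those of Inha -0.38 (adjusted p = 0.0653) and -0.39 (adjusted p = 0.0615).

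Bmpr1b, another type I receptor for BMPs, did not pass the test, with 53.7, 71.6 and 123 normalized reads in WT and 145, 139 and 126 in mKO RGC libraries and a log2 fold change of 0.80 ± 0.29 (SE; adjusted p = 0.0678). WT RGC library C was again the one of its group nearest to mKO. Without WT RGC library C the log2 fold change of Bmpr1b was 1.12 (adjusted p = 0.00121). Bmpr2 held 1283, 1344 and 931 normalized reads in WT and 1304, 1227 and 1377 in mKO RGC libraries, with a log2 fold change of 0.15 ± 0.14 (SE; adjusted p = 0.42) and a 95% interval from -0.17 to 0.48. Tgfbr2 held 129, 429 and 118 normalized reads in WT and 258, 113 and 62.1 in mKO RGC libraries, and its log2 fold change of -0.61 ± 0.64 had an interval from -2.12 to 0.90. Acvrl1, a type I receptor of blood vessels, was likewise uneven, at 36.5, 93.4 and 29.2 normalized reads in WT and 37.5, 18.4 and 13.2 in mKO RGC libraries. Summed mesenchyme markers stood at 295, 889.6 and 13.96 CPM in WT RGC libraries and 490.4, 45.3 and 152 in mKO RGC libraries, and the library with the most of them was that with the most Tgfbr2 and Acvrl1 reads in each genotype. Summed pericyte markers peaked in the same libraries, at 50.8, 118.2 and 33.6 CPM in WT and 85.3, 21.5 and 31.1 in mKO. Summed endothelial markers stood at 291.8, 342.4 and 424 CPM in WT and 338, 302.3 and 288.3 in mKO. Of these, Kdr and Cldn5 were highest in WT library C and the others in WT library B. The other receptors, Acvr1, Acvr1b and Tgfbr3, had log2 fold changes between -0.21 (Acvr1b) and 0.24 (Tgfbr3), none with an adjusted p under 0.05. Of the 5 mesenchyme markers 1 was at 0 reads in WT RGC library C, and the part of mesenchyme, pericytes and endothelium in the receptor levels was not tested.

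**Figure D3:**
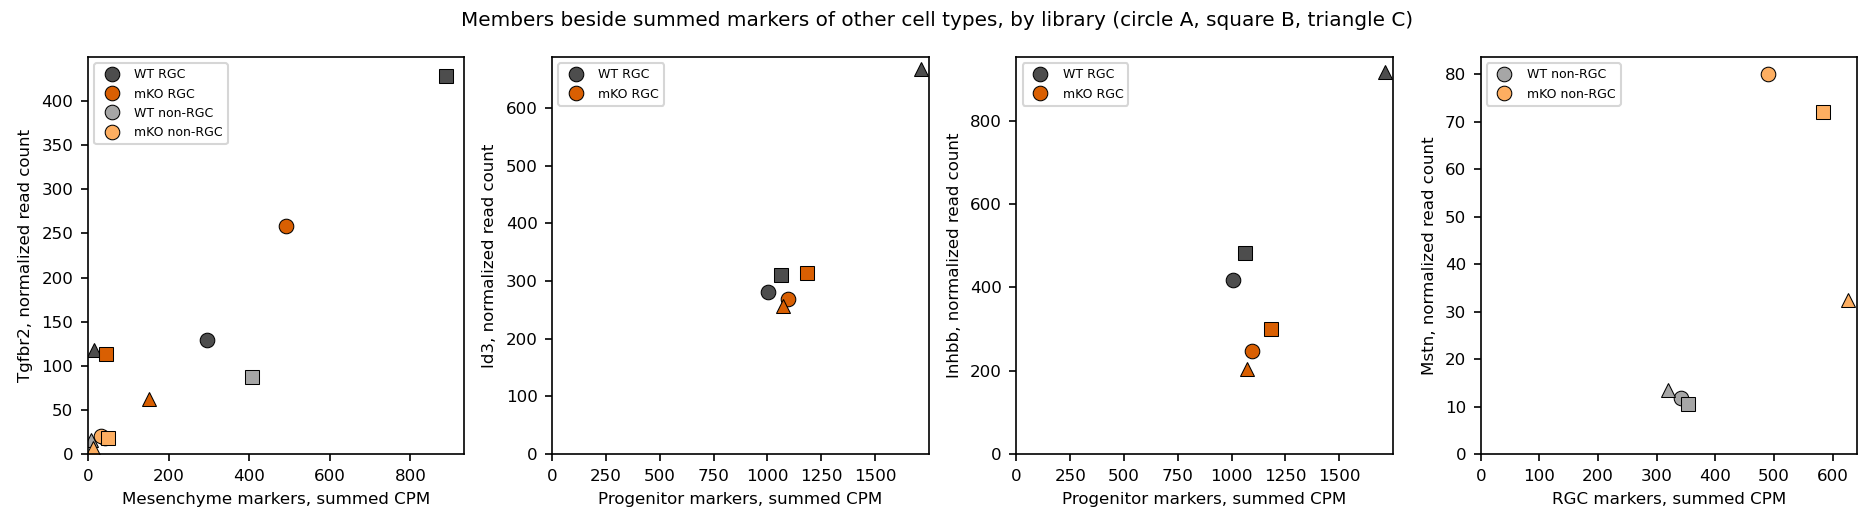
Normalized read count of Tgfbr2, Id3, Inhbb and Mstn (vertical) against the summed CPM of the markers of a cell type (horizontal), by library (circle A, square B, triangle C); Tgfbr2 is shown for all 12 libraries, Id3 and Inhbb for RGC libraries, and Mstn for non-RGC libraries. The library with the most mesenchyme markers in a group has the most Tgfbr2 reads in WT RGCs, mKO RGCs and WT non-RGCs but not in mKO non-RGCs (library B for the markers, library A for Tgfbr2), WT RGC library C is highest for Id3, Inhbb and progenitor markers, and mKO non-RGC libraries are higher than WT for Mstn and RGC markers.

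Of the 8 SMADs, Smad7, the inhibitor of both branches, fell in mKO RGCs by less than 1.5-fold. WT RGC libraries held 913, 821 and 1097 normalized reads and mKO RGC libraries 652, 675 and 626, with a log2 fold change of -0.53 ± 0.11 (SE; adjusted p = 0.00921). The trend-adjusted difference was -0.12 (adjusted p = 0.465). Smad6 held 96.3, 116 and 257 normalized reads in WT and 80.3, 89.4 and 63.0 in mKO RGC libraries, with a log2 fold change of -0.88 ± 0.36 (SE; adjusted p = 0.0982). Without WT RGC library C the difference was -0.46 (adjusted p = 0.0894). None of the signalling SMADs passed the test. Smad1, Smad2, Smad3, Smad4, Smad5 and Smad9 had log2 fold changes between -0.20 (Smad1) and 0.21 (Smad9). Without WT RGC library C they were -0.26 (adjusted p = 0.00207) for Smad1, 0.29 (adjusted p = 0.000998) for Smad5 and -0.16 (adjusted p = 0.397) for Smad9. The trend-adjusted value of Smad2 was -0.25 (adjusted p = 0.0439), beside 1539.6, 1606 and 1628 normalized reads in WT and 1439, 1497 and 1476 in mKO RGC libraries.

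Of the Id genes, Id4 (chr13:48261228-48266026, plus strand) fell slightly in mKO RGCs. WT RGC libraries held 945, 959 and 965 normalized reads and mKO RGC libraries 835, 856 and 808, without overlap, with a log2 fold change of -0.20 ± 0.05 (SE; adjusted p = 0.0255). Its transcripts have 42.6% GC, and its trend-adjusted difference was -0.41 (adjusted p = 0.014). Without each library other than WT RGC library C, its adjusted p was between 0.0603 and 0.105, and without that library the log2 fold change was -0.19 (adjusted p = 0.0112). Id1, Id2 and Id3 did not pass the test. Id1 held 129, 152 and 405 normalized reads in WT RGC libraries and 154, 206 and 137 in mKO RGC libraries, with a log2 fold change of -0.29 ± 0.42 (SE; adjusted p = 0.616) and a 95% interval from -1.28 to 0.70. Id3 held 281, 310.5 and 668 normalized reads in WT and 269, 314 and 257 in mKO RGC libraries, with a log2 fold change of -0.47 ± 0.31 (SE; adjusted p = 0.271). In both genes WT RGC library C had more than any of the other 5 RGC libraries, as it had of summed progenitor markers, and without it the log2 fold change was 0.22 (adjusted p = 0.353) for Id1 and -0.08 (adjusted p = 0.558) for Id3. Id2 held 365, 369 and 518 normalized reads in WT and 462, 488 and 421 in mKO RGC libraries, with a log2 fold change of 0.15 ± 0.15 (SE; adjusted p = 0.467), and without WT RGC library C its log2 fold change was 0.31 (adjusted p = 0.0124). Summed progenitor markers stood at 1004, 1063 and 1713 CPM in WT RGC libraries and 1096, 1182 and 1072 in mKO RGC libraries, none of the 8 markers was at 0 reads, and their part in these values was not tested.

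**Figure D4:**
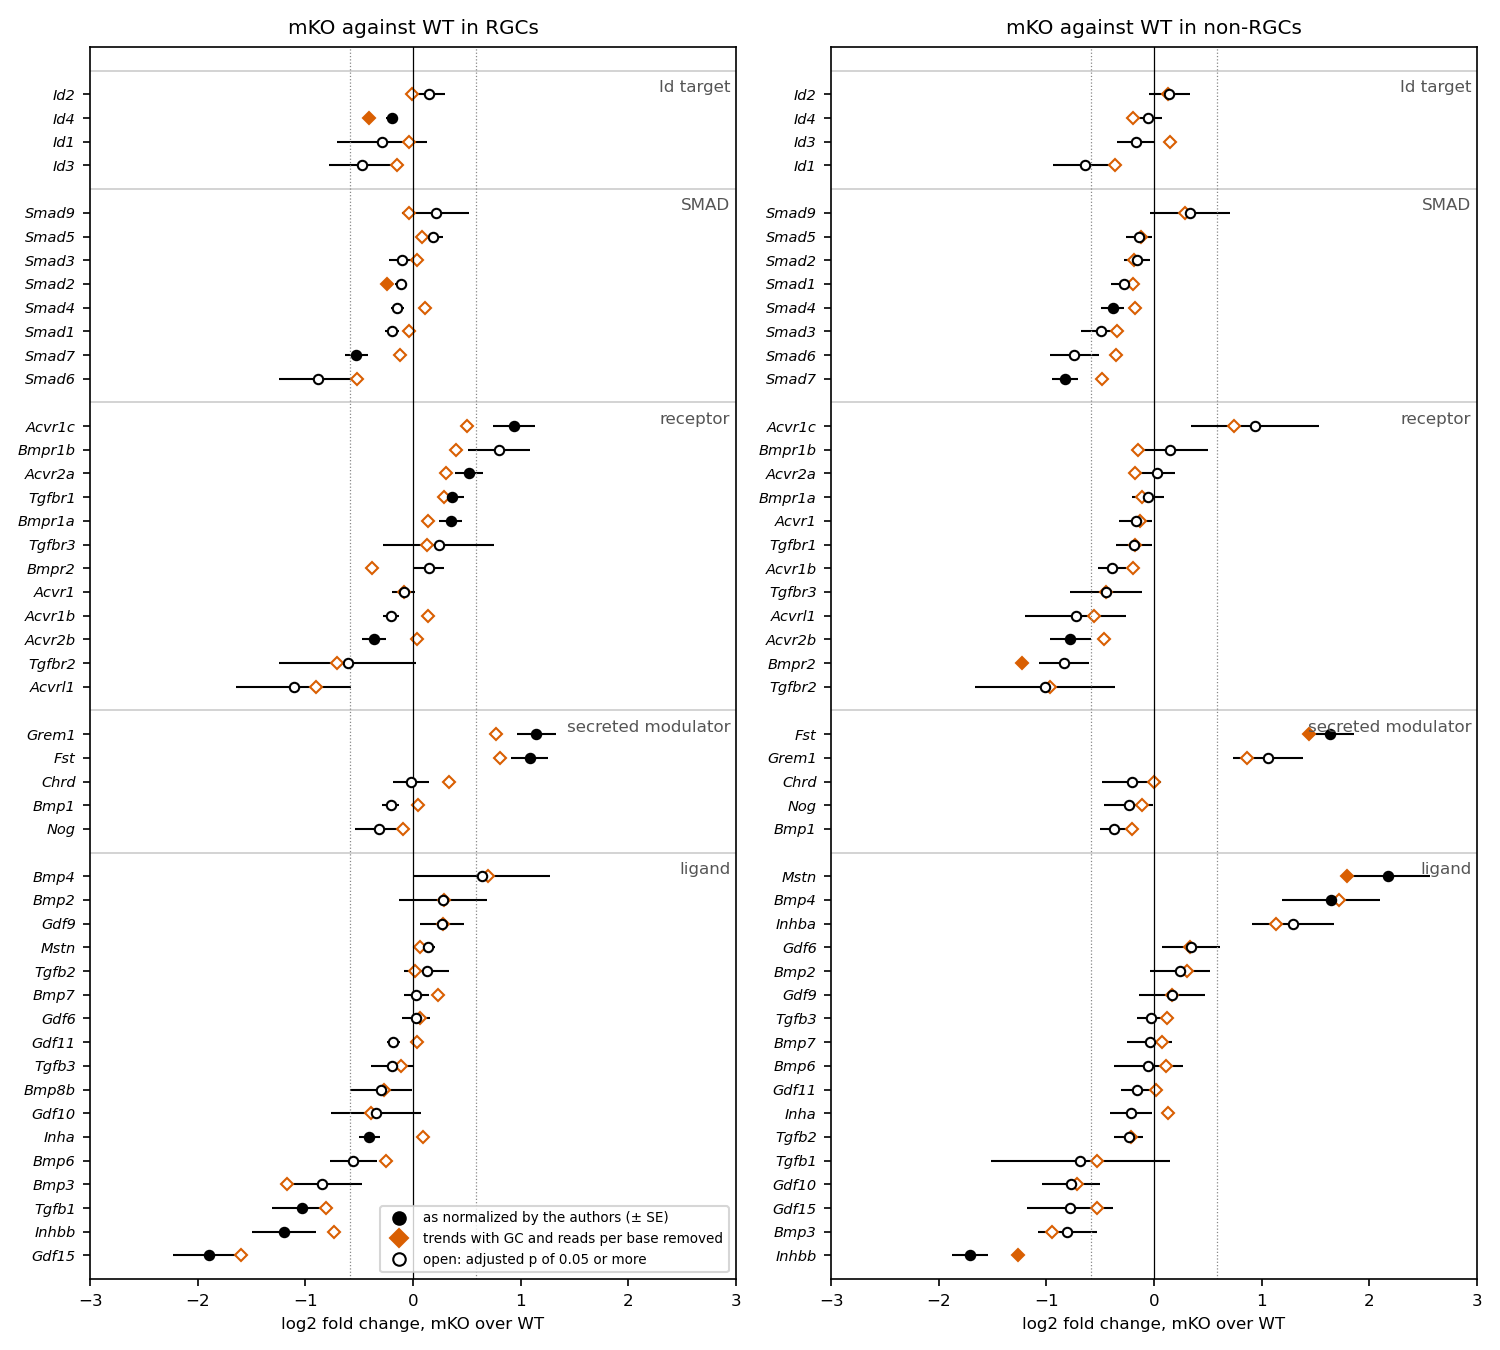
Log2 fold change, mKO over WT, of the members tested in RGCs (left) and in non-RGCs (right), grouped by role; black circles with SE bars are the values as normalized by the authors, orange diamonds the trend-adjusted values, filled symbols have an adjusted p under 0.05, and dotted lines mark 1.5-fold. In RGCs 13 members are filled black circles and in non-RGCs 7, and 2 and 4 are filled diamonds.

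The next comparison asked the same of non-RGCs, the cells that the beads did not bind. Fst, Mstn and Bmp4 were higher in mKO non-RGCs and Inhbb, Smad7 and Acvr2b lower, with fold changes of up to 4.51 (Mstn) for those that rose and 3.27 (Inhbb) for those that fell. Of the 59 members 46 were tested, and 3 (6.52%) were higher and 3 (6.52%) lower by the same criteria, against 3.88% and 4.22% of all 15326 genes tested. Without the limit on the fold change 7 members (15.2%) passed, against 10.6% of all genes. The median log2 fold change was -0.18 over the members tested and -0.03 over all genes tested. In the trend-adjusted fit 4 of 46 members (8.70%) had an adjusted p under 0.05, namely Fst, Mstn, Inhbb and Bmpr2, against 1.61% of all genes. Without WT non-RGC library C, 8 members (17.4%) were called, against 8.31% of all genes tested then, with Acvr1c, 1.70 (adjusted p = 0.0296), Gdf6, 0.67 (adjusted p = 0.0479), and Grem1, 1.28 (adjusted p = 0.0362), in addition and Acvr2b, -0.60 (adjusted p = 0.0517), no longer called. Without mKO non-RGC library B, 3 members (6.52%) were called, against 0.920% of all genes. These cells were not pure in either genotype. Summed RGC markers stood at 319 to 354 CPM in WT non-RGC libraries and 489.8 to 626 in mKO non-RGC libraries, those of the retinal pigment epithelium at 69.9 to 171 (1 of 7 markers at 0 reads in each library) and 247 to 272 (none at 0), and those of progenitors at 2118 to 2556 and 1826 to 2176. Blood markers stood at 4.28 to 8.83 CPM in WT and 30.1 to 43.8 in mKO, and photoreceptor markers at 989.9 to 1158 and 749 to 863. Amacrine markers stood at 980.3 to 1110.2 and 816 to 926, and ciliary and kidney-like markers at 11.1 to 14.97 and 1.12 to 1.36. Endothelial markers, of which Kdr made up most, stood at 591.8 to 621 and 507.6 to 580.4. In each of these cases, other than that of the progenitor markers, the genotypes did not overlap. The part of such cells in the values below was not tested.

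Fst was higher in every mKO non-RGC library. WT non-RGC libraries held 62.3, 64.8 and 59.4 normalized reads and mKO non-RGC libraries 167, 183 and 243, with a log2 fold change of 1.64 ± 0.22 (SE; adjusted p = 0.00616). The trend-adjusted difference was 1.44 (adjusted p = 0.0367), and the adjusted p was 0.0101 to 0.0429 without each library in turn. Its level of 4.33 ± 0.819 RPKM in mKO non-RGCs stood beside 4.75 ± 0.451 RPKM in mKO RGCs. Grem1 held 18.0, 29.0 and 36.5 normalized reads in WT and 64.7, 51.8 and 55.1 in mKO non-RGC libraries, without overlap and with a log2 fold change of 1.06 ± 0.32 (SE; adjusted p = 0.0627). Chrd, Nog and Bmp1 had log2 fold changes between -0.37 (Bmp1) and -0.21 (Chrd), none with an adjusted p under 0.05.

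Among ligands Inhbb fell, without overlap of the genotypes. WT non-RGC libraries held 1134, 1374 and 1758 normalized reads and mKO non-RGC libraries 428, 419 and 435, with a log2 fold change of -1.71 ± 0.17 (SE; adjusted p = 0.00319). The trend-adjusted difference was -1.27 (adjusted p = 0.014), and the fitted one ran from -1.86 to -1.54 without each library in turn. Inhba, the gene of the beta A subunit, was low and did not pass the test, at 6.32, 5.81 and 6.26 normalized reads in WT and 14.6, 15.3 and 19.8 in mKO non-RGC libraries, with a log2 fold change of 1.29 ± 0.38 (SE; adjusted p = 0.0567). Bmp4 (chr14:46383520-46390669, minus strand) held 19.8, 30 and 7.3 normalized reads in WT and 60.1, 47.0 and 55.1 in mKO non-RGC libraries, with a log2 fold change of 1.65 ± 0.46 (SE; adjusted p = 0.0495) and a trend-adjusted value of 1.72 (adjusted p = 0.0814). The call of Bmp4 stood at the threshold: its adjusted p was 0.045 to 0.136 without each library in turn, and it rose above 0.05 without WT library A, 1.77 (adjusted p = 0.0713), or mKO libraries A, 1.57 (adjusted p = 0.106), B, 1.74 (adjusted p = 0.136), or C, 1.63 (adjusted p = 0.097). Bmp3, Gdf10 and Gdf15 had log2 fold changes from -0.80 (Bmp3) to -0.77 (Gdf10) and adjusted p-values from 0.0831 to 0.218. Tgfb2 and Tgfb3, the main TGF-beta ligands of this fraction, differed by -0.24 ± 0.14 and -0.03 ± 0.13 on the log2 scale, with 95% intervals from -0.54 to 0.07 and from -0.32 to 0.25. The other ligands tested, Bmp2, Bmp6, Bmp7, Gdf6, Gdf9, Gdf11, Inha and Tgfb1, had log2 fold changes between -0.69 (Tgfb1) and 0.35 (Gdf6), and Bmp8b was too low to be tested.

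Mstn (chr1:53061640-53068079, plus strand) held 11.7, 10.6 and 13.6 normalized reads in WT non-RGC libraries and 80.1, 71.9 and 32.5 in mKO non-RGC libraries, with a log2 fold change of 2.17 ± 0.39 (SE; adjusted p = 0.0132). The trend-adjusted difference was 1.80 (adjusted p = 0.0412), and the fitted one was 2.01 (adjusted p = 0.0767) without mKO library B. In CPM, Mstn in non-RGCs came to 4.67% of its RGC level in mKO and 0.965% in WT. The same share was 6.48% and 0.246% for Thy1, the protein on which RGCs were selected, 8.21% and 1.98% for Pou4f1 and 9.45% and 2.05% for Pou4f2, transcription factors of RGCs. For Rbpms, Nefl, Nefm, Sncg and Isl1 it was higher, from 16.8% and 6.5% (Rbpms) to 47.0% and 36.0% (Isl1). Of the mKO non-RGC libraries, C had the fewest Mstn reads, and RGC markers differed in which library was lowest. Pou4f2 (177, 199 and 129.9 normalized reads in A, B and C) and Rbpms (359.9, 384 and 309), an RNA-binding protein of RGCs, were lowest in C as Mstn was, whereas Thy1 (67.0, 79.6 and 93.2) and the summed RGC markers (489.8, 584 and 626 CPM) were highest there. The part of RGCs left in the fraction in the rise of Mstn was not tested.

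In non-RGCs the median log2 fold change was -0.29 over the 12 receptors and -0.33 over the 8 SMADs, beside -0.03 over all genes tested. An adjusted p under 0.05 was found for 1 receptor (8.33%) and 2 SMADs (25%), against 10.6% of all genes. Acvr2b (chr9:119402118-119434995, plus strand) held 688, 585 and 929 normalized reads in WT and 482, 384 and 399.6 in mKO non-RGC libraries, with a log2 fold change of -0.78 ± 0.19 (SE; adjusted p = 0.0327). Its trend-adjusted value was -0.46 (adjusted p = 0.215), and the fitted one was -0.81 (adjusted p = 0.0651) without WT library A, -0.60 (adjusted p = 0.0517) without WT library C, -0.71 (adjusted p = 0.143) without mKO library B and -0.74 (adjusted p = 0.0615) without mKO library C. Bmpr2, with 937, 1040.2 and 1248 normalized reads in WT and 864, 578 and 426 in mKO non-RGC libraries, had a log2 fold change of -0.84 ± 0.24 (SE; adjusted p = 0.0511). Its transcripts are poor in GC (39.6%), its trend-adjusted value was -1.22 (adjusted p = 0.022), and without mKO library A the fitted one was -1.10 (adjusted p = 0.0147). The lowest library was mKO library C, the shallowest of all 12. Bmpr1a, Bmpr1b and Tgfbr1 had log2 fold changes of -0.06 ± 0.15, 0.15 ± 0.35 and -0.19 ± 0.17, with adjusted p-values of 0.825, 0.798 and 0.486. The other receptors had log2 fold changes between -0.73 (Acvrl1) and 0.94 (Acvr1c), none with an adjusted p under 0.05. Tgfbr2 held 18.0, 87.1 and 15.6 normalized reads in WT and 20.8, 18.2 and 7.06 in mKO non-RGC libraries, and WT library B, the highest, also had the most mesenchyme markers (42.3, 406 and 6.94 CPM in WT libraries A, B and C, with 2 of 5 markers at 0 reads in C).

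Smad7 was lower in every mKO non-RGC library. WT non-RGC libraries held 1427, 1405 and 1572 normalized reads and mKO non-RGC libraries 856, 864 and 757, with a log2 fold change of -0.83 ± 0.12 (SE; adjusted p = 0.00741), and a trend-adjusted value of -0.48 (adjusted p = 0.0878). Smad6 held 315, 290.3 and 482 normalized reads in WT and 238, 223 and 177 in mKO non-RGC libraries, with a log2 fold change of -0.74 ± 0.23 (SE; adjusted p = 0.0639). Smad4, shared by both branches, held 2234, 2308 and 2513 in WT and 1762, 1828 and 1803 in mKO non-RGC libraries, with a log2 fold change of -0.39 ± 0.11 (SE; adjusted p = 0.0466), and without each library in turn its adjusted p was 0.0515 to 0.181, above 0.05 each time. None of the Id genes passed the test in non-RGCs. Their log2 fold changes were -0.64 ± 0.30 for Id1 (adjusted p = 0.182), 0.14 ± 0.19 for Id2, -0.17 ± 0.18 for Id3 and -0.05 ± 0.13 for Id4, with 95% intervals from -1.30 to 0.03, -0.29 to 0.57, -0.57 to 0.23 and -0.34 to 0.23. Id1 held 326, 352 and 698 normalized reads in WT and 207, 311 and 329 in mKO non-RGC libraries, with WT library C above all others, and its log2 fold change without that library was -0.29 (adjusted p = 0.401).

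**Figure D5:**
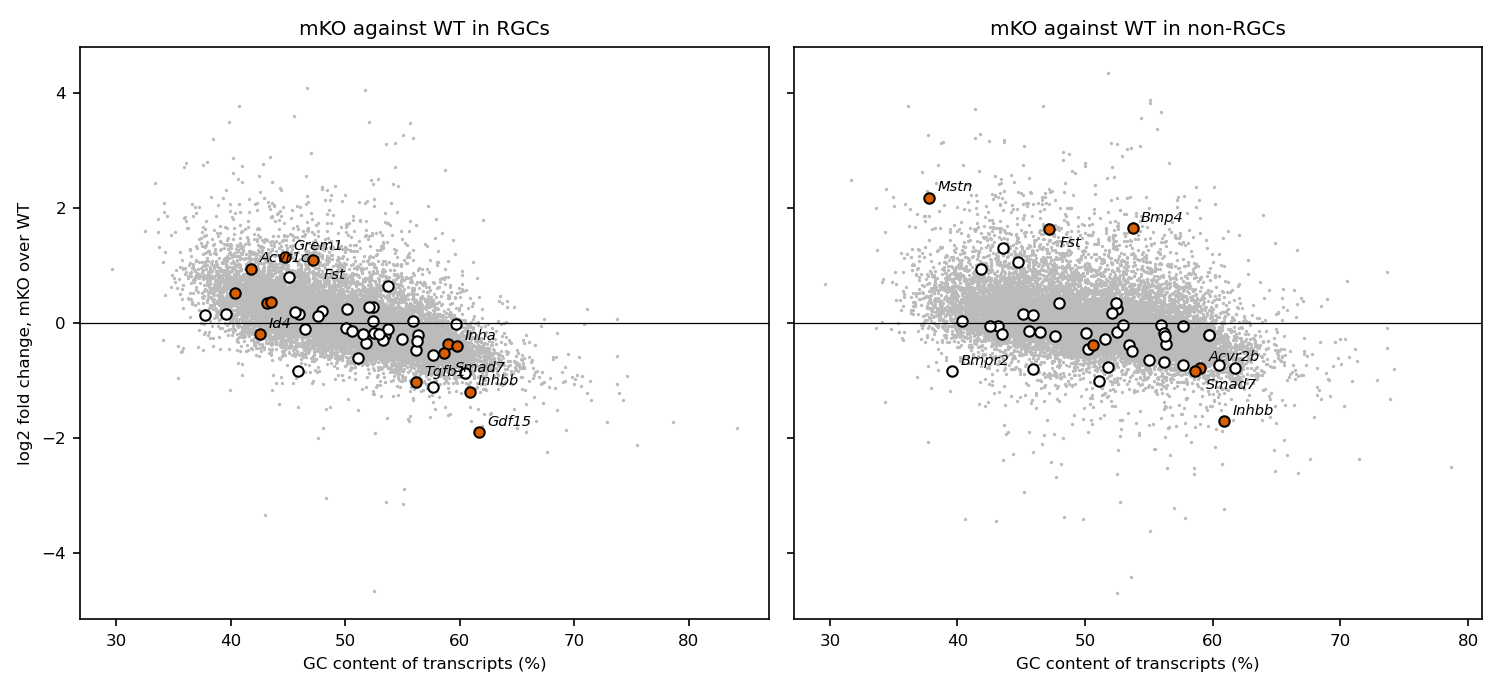
Log2 fold change, mKO over WT, of all genes tested (grey dots) against the GC content of their transcripts, in RGCs (left, 16085 genes tested) and non-RGCs (right, 15326), with members as circles, filled where the adjusted p is under 0.05. In RGCs the members that rose with an adjusted p under 0.05 have at most 47.2% GC and those that fell, other than Id4, at least 56.2%.

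The last comparison asked whether the effect of the genotype differed between the fractions, by an interaction term over the 12 libraries. Of 45 members tested in both, 0 had an adjusted p under 0.05, 5 (11.1%, against 10.1% of all genes) had an unadjusted p under 0.05 in limma, and 0.107% of all 14894 genes tested had an adjusted p under 0.05. The largest difference was that of Mstn, whose log2 fold change in RGCs minus that in non-RGCs was -2.03 ± 0.37 (SE; adjusted p = 0.0621), and trend-adjusted -1.73 (adjusted p = 0.0494). Mstn passed the test without mKO non-RGC library A or C, and Bmpr2 without library A. Bmpr2 differed by 0.99 ± 0.30 (adjusted p = 0.409), the value in RGCs being the higher. For Fst the difference was -0.55, with a 95% interval from -1.14 to 0.03, and for Inhbb it was 0.51, from -0.26 to 1.28. Both genes moved the same way in the fractions. For Gdf15, which passed the test in RGCs and not in non-RGCs, the difference was -1.12, from -2.27 to 0.03.

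Other genes of the pathway were taken from a list of 64: 32 coreceptors and extracellular modulators, 22 intracellular regulators and 10 targets. In RGCs 55 were tested, of which 0 were higher and 4 (7.27%) lower at both criteria, against 7.91% and 5.51% of all genes, and 15 (27.3%) had an adjusted p under 0.05, against 37.5%. The 4 were Rgma, a BMP coreceptor (-0.73 ± 0.16 on the log2 scale, adjusted p = 0.0107), Furin, a protease that matures the ligands (-0.61 ± 0.06 on the log2 scale, adjusted p = 0.00077), Ltbp3, which holds latent TGF-beta in the matrix (-0.66 ± 0.08 on the log2 scale, adjusted p = 0.00116), and Fstl3, a relative of follistatin (-1.17 ± 0.35 on the log2 scale, adjusted p = 0.0373). Furin held 1653, 1600.2 and 1776 normalized reads in WT and 1106, 1058 and 1121 in mKO RGC libraries. Those that rose most with an adjusted p under 0.05 changed by less than 1.5-fold: Zfyve9, an adaptor that presents Smad2 and Smad3 to the receptor (0.39), Nedd4l, a ubiquitin ligase for SMADs (0.36), and the SMAD-binding repressors Zeb2 (0.25) and Zeb1 (0.25). The 4 genes that fell had trend-adjusted values of -0.33 (adjusted p = 0.335) for Rgma, -0.25 (adjusted p = 0.0533) for Furin, -0.25 (adjusted p = 0.122) for Ltbp3 and -1.02 (adjusted p = 0.185) for Fstl3. In the trend-adjusted fit 1 of the 55 (1.82%) had an adjusted p under 0.05, against 4.81% of all genes. It was the SMAD phosphatase gene Ppm1a, at -0.61 (adjusted p = 0.00693), which was singled out after its values were seen.

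In non-RGCs 54 of the 64 were tested, and 0 were higher and 6 (11.1%) lower at both criteria, against 3.88% and 4.22% of all genes. The latent TGF-beta binding protein genes Ltbp4 (-1.56 ± 0.21 on the log2 scale, adjusted p = 0.0063), Ltbp1 (-0.91 ± 0.21 on the log2 scale, adjusted p = 0.028) and Ltbp3 (-0.90 ± 0.13 on the log2 scale, adjusted p = 0.00741) and Furin (-0.89 ± 0.17 on the log2 scale, adjusted p = 0.0155) fell most. Ltbp4 held 771, 920.3 and 735 normalized reads in WT and 301, 340.5 and 196 in mKO non-RGC libraries, and Ltbp1 held 514, 492 and 721 in WT and 385, 281 and 254 in mKO non-RGC libraries. Neither gene's groups overlapped. In the trend-adjusted fit 2 of the 54 (3.70%) were called, against 1.43% of all genes. They were Ltbp4 at -1.12 (adjusted p = 0.0349) and Ltbp1 at -0.9964 (adjusted p = 0.0465). Rnf111, at -0.57 (adjusted p = 0.0419), had an adjusted p under 0.05 there with a change of less than 1.5-fold. The others of the 6, Ltbp3 at -0.52 (adjusted p = 0.0686), Furin at -0.60 (adjusted p = 0.0973), Hipk2 at -0.55 (adjusted p = 0.156) and Ski at -0.36 (adjusted p = 0.232), did not pass. The median log2 fold change of the list was -0.10 in RGCs and -0.30 in non-RGCs, beside 0.00 and -0.03 over all genes tested. Of the 10 target genes 9 were tested in each fraction. In RGCs 2 (22.2%) had an adjusted p under 0.05, against 37.5% of all genes, and in non-RGCs 0, against 10.6%. The 2 were Hes1 (-0.47 ± 0.10 on the log2 scale, adjusted p = 0.0098), a repressor shared with Notch signalling, and Cdkn1a (-0.49 ± 0.06 on the log2 scale, adjusted p = 0.00177), an inhibitor of the cell cycle, whose trend-adjusted values were -0.05 (adjusted p = 0.792) and -0.18 (adjusted p = 0.153).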

How the data were processed

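Single-end poly-A libraries of P0 mKO and WT mice were grouped by the genotype and fraction in their labels. The authors aligned reads to mm10 with STAR 2.3.1z4, per the labels, counted them per gene with featureCounts, removed duplicates and kept primary alignments, and normalized with DESeq. The library kit does not mark strand, so reads of a gene and of an antisense gene over it cannot be told apart. The deposited signal values are read counts scaled by each library's size factor, then averaged within a group of 3; the other deposited columns hold the authors' own fold changes and p-values and were not used. Columns of per-sample values not used numbered 0. Exactly 1 combination of whole reads gave each 15-digit mean, for all 25690 (mKO) and 23544 (WT) genes with reads in RGCs and all 24386 (mKO) and 22931 (WT) in non-RGCs. Recovery and fits were tested on simulated data.

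Within each table, limma 3.58.1 (R 4.3.3) with a mean-variance trend was run on log2(normalized count + 1) for genes whose mean reached 10 in WT or mKO, a scale that understates changes of low genes; p-values are two-sided and adjusted by Benjamini-Hochberg over all genes tested, and with 3 libraries a group measure the spread between these RNA extractions. A gene was called at an adjusted p under 0.05 if it changed at least 1.5-fold. An exact permutation test cannot go below 0.1 here and was not run. GC content, exon lengths and positions come from GENCODE M21 on GRCm38; trend-adjusted values had each library's mean deviation over the 300 genes nearest in GC content and read density taken out, and in a further alternative a lowess trend (span 0.3) with GC content alone was removed. Other alternatives were pseudocount, filter, centring, call rule and leaving out each library. Floors of 3 reads cover counting error only, since PCR copies are not independent molecules. The members and lists were chosen with earlier results of these data known. Values are given by library for members with an adjusted p under 0.05 (at most 15 a fraction, by size). In RGCs they are also given for the Id genes, Bmpr1a, Bmpr1b, Bmpr2, Tgfbr1, Tgfbr2 and Ezh2. The plan held these genes for non-RGCs too, and the highest member of each role, but only some of those have values by library here. Of the further pathway genes, the 4 of largest change with an adjusted p under 0.05 are named in each direction and fraction. Other members with values were chosen after these were seen. Of the members, 1 is counted in the totals and not reported here by name.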

Additional observations from a re-analysis of the deposited data

How the results depend on the processing

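The number of members called in RGCs was 6, and was 4 to 8 with a pseudocount of 0.5, a filter at a mean of 1 or 50, median-centred libraries, or an unadjusted p in place of the adjusted one. It was 3 with the GC trend removed, 0 in the trend-adjusted fit, and 13 without a limit on the fold change. Without each library in turn it was 4 to 10, the highest without WT RGC library C. In non-RGCs the number was 6, with 12 called from an unadjusted p, and 3 to 8 without each library in turn, the lowest without mKO non-RGC library B; under the other alternatives it was 4 to 7. For the difference between fractions the number was 0, with 1 (Mstn) with the GC trend removed and 1 in the trend-adjusted fit, 5 at an unadjusted p under 0.05, and 0 to 2 without each library in turn, the highest without mKO non-RGC library A (Bmpr2 and Mstn). Over all genes 2158 were called in RGCs and 1242 in non-RGCs, with 606 and 203 when the GC trend was removed and 244 and 219 in the trend-adjusted fit.

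Among log2 fold changes by gene, some turned sign when trends were removed. Inha in RGCs went to 0.0977 (GC trend) and 0.0941 (trend-adjusted), Acvr2b to 0.11 and 0.0378, Id2 to -0.0096 and -0.0057, and Bmpr2 to -0.34 and -0.39. In non-RGCs Id3 went to 0.0821 and 0.15, and Bmpr1b to a trend-adjusted -0.15. Without each library in turn Id1 in RGCs ran from -0.60 to 0.22, Bmpr2 in RGCs from -0.0131 to 0.25, Bmpr1a in non-RGCs from -0.15 to 0.10 and Bmpr1b in non-RGCs from -0.13 to 0.54. Removing trends takes out a genotype difference that follows GC content, whatever its source, and the cause of the changes was not tested. Depth limits the ligands with few reads, such as Gdf15 and Bmp4. No paired analysis was possible because the deposited columns carry no replicate numbers.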
